A study of Arabidopsis thaliana with 48 samples.

Results

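The 51 genes described here are the nucleus-encoded genes of the photosynthetic apparatus in Arabidopsis thaliana, chosen by locus identifier out of 32833 genes listed. They comprise 9 genes for the trimeric light-harvesting complex of photosystem II (LHCII), 6 for its minor antenna, 6 for the antenna of photosystem I (LHCI), 12 for the photosystem I core, 9 for photosystem II subunits, 5 for electron carriers and ATP synthase, and 4 for the small subunit of Rubisco. RNA-seq was run on rosette leaves. The plants were 4 to 5 weeks old and had been kept at 23°C with an 8 h day at 50 μmol m-2 s-1 and a 16 h night. A single leaf per plant, the local leaf, was lit at 2000 μmol m-2 s-1 (excess light) over 0, 2, 4 or 8 min, and it was collected together with an untreated systemic leaf of the same plant. Plants were Col wild type, called WT here, or the rbohD knockout, which lacks a functional RBOHD, the NADPH oxidase needed for the systemic wave of reactive oxygen species. The 16 groups of genotype, leaf and time held 3 libraries each, 48 in all, and each library was a pool of leaves from many plants. The labels and methods name one rbohD knockout, and whole leaves hold several cell types. The comparisons ask which of these genes changed from 0 min, and whether genotype or leaf altered the change.

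Light-harvesting proteins bind chlorophyll and pass excitation to the reaction centres of both photosystems. Photosystem II splits water, electrons pass through the cytochrome b6f complex and plastocyanin to photosystem I, and ATP synthase uses the resulting proton gradient. Rubisco then fixes carbon dioxide in the Calvin cycle. Many subunits are encoded in the nucleus by small gene families whose messages are among the most abundant of a green leaf.

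WT libraries held 18311884 to 28675623 reads (local) and 20197316 to 26757890 (systemic), and rbohD libraries 13996572 to 18526191 (local) and 13412657 to 21834017 (systemic). Values are normalized counts, that is reads divided by a size factor, and each of the 4 combinations of genotype and leaf was normalized on its own, so levels were not tested between them. RBOHD stood at 1096 to 2153 normalized counts in the WT libraries and at 337 to 697 in the rbohD libraries. These ranges did not overlap, but they stand on separate scalings. Leaf mesophyll markers (CA1, RCA and GAPB) summed to 351347 to 771565 normalized counts per library, and root markers (PYK10, COBL9 and EXPA7) to 7.34 to 306. Guard cell markers (5 genes) summed to 472 to 1216, companion cell markers (2 genes) to 4814 to 10989 and epidermis markers (3 genes) to 6825 to 14467. The libraries of 2, 4 and 8 min all came from plants given excess light, so time since 0 min and light cannot be told apart, and the comparisons of one table share its 0 min libraries.

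The promoters of 5 genes are shown because these genes were among those with the largest rises, falls or genotype differences of the members. They also differed in which light-related motifs fell inside the windows before their annotated starts. Each is the 250 bases before the annotated start in the RefSeq annotation of TAIR10.1, written 5′ to 3′ on the strand of the gene, with the G-box (CACGTG) and the I-box (GATAAG, or CTTATC on the other strand) in capitals. They come from chr2:14524357-14524606, plus strand (LHCB1.4), chr1:28728748-28728997, plus strand (LHCB7), chr3:10255656-10255905, plus strand (LHCB2.3), chr5:15385321-15385570, minus strand (RBCS1B) and chr5:15382072-15382321, minus strand (RBCS2B).
LHCB1.4: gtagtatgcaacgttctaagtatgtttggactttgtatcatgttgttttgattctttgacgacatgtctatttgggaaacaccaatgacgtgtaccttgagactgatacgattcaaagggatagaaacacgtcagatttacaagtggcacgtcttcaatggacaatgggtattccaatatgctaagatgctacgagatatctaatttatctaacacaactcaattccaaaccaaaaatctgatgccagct
LHCB7: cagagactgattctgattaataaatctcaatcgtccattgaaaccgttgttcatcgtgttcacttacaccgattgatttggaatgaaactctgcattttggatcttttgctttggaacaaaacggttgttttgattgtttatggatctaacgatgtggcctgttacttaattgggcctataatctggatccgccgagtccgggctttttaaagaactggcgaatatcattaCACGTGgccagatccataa
LHCB2.3: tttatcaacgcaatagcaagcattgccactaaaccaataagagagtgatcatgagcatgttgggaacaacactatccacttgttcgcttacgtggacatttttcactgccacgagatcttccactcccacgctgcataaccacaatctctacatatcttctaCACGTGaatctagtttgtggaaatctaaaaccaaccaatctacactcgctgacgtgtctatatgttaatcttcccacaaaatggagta
RBCS1B: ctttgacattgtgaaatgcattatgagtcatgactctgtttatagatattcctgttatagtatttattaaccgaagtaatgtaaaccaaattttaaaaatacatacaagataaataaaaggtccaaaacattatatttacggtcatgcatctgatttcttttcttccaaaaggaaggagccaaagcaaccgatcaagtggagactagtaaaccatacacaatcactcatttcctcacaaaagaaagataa
RBCS2B: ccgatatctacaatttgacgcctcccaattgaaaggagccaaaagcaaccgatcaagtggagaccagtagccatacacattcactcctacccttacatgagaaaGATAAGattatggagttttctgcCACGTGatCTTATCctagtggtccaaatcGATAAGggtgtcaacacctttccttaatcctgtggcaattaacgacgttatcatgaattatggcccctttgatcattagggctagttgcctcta
The RBCS2B window held a G-box whose first base lay 123 bases before the start and I-boxes at 146, 115 and 94 bases. LHCB7 held a G-box at 19 bases and LHCB2.3 a G-box at 88 bases before the start, while the LHCB1.4 and RBCS1B windows held neither motif. For RBCS1B this depends on the annotated start, as its transcript is 1894 bases and that of RBCS2B 935. The stretch gcaaccgatcaagtggagac lies near the end of the RBCS1B window but ahead of all the motifs in the RBCS2B window. Sequence past the RBCS1B start was not searched. LHCB1.2, LHCB4.3 and PSAD-2 were also among the largest rises or falls, and their windows, not shown, held neither motif. The G-box and the I-box are motifs known from light-responsive plant promoters. The G-box occurred in 11 of the 51 member windows (21.6%) and in 6.49% of the 27443 windows of all protein-coding genes, and the I-box in 12 members (23.5%) and in 12.3% of all. CCAAT, searched on both strands like the others, occurred in 34 members (66.7%) and in 46.0% of all, and in every LHCII window but only 2 of 9 windows of photosystem II subunits. The evening element (AAAATATCT) was in 2 members (3.92%, and 2.36% of all), and the CCA1 sites AAAAATCT and AACAATCT in 5 (9.80%, and 6.69% of all) and 1 (1.961%, and 1.83% of all). These matches are letters in a window and say nothing about binding.

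LHCB1.3 (AT1G29930, chr1:10477885-10479114, plus strand) had the highest level of the members per kilobase of transcript. It stood at a mean of 482251 normalized counts per kilobase over the 48 libraries, followed by RBCS1A at 248184. The lowest member with reads was LHCB4.3, at 71.2 per kilobase, and LHCB7 came next. Class medians per kilobase were 93902 for LHCII, 80781 for LHCI, 77483 for the Rubisco small subunit, 50759 for photosystem II subunits, 49071 for the minor antenna, 33986 for the photosystem I core and 24128 for the carriers and ATP synthase. LHCB1.5 (AT2G34420) was listed at 0 in all 48 libraries and was not tested, so 50 members entered every comparison. Near-identical genes can trade reads: of the 75-base windows of a transcript, 19.1% of those of LHCB2.2 also occur in LHCB2.1, 13.997% of those of RBCS3B in RBCS1B, and 7.53% of those of LHCB1.3 in LHCB1.1. Several members overlap genes on the opposite strand. Among them, PSAG overlaps AT1G55673 over 61.4% of its length, PSAH-1 AT3G16130 over 49.0% and LHCB2.3 AT3G27700 over 37.6%. Smaller overlaps include LHCB6 with AT1G05207 over 25.2% and LHCB1.3 with AT1G29940 over 8.78%. The counting tool and its use of strand are not given in the sources used here.

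All members together took 20.6% ± 0.06 (SD, n = 3) of the reads at 0 min in WT local leaves, 20.5% ± 0.45 after 2 min, 20.4% ± 0.43 after 4 min and 18.1% ± 0.22 after 8 min. The share in WT systemic leaves was 21.7% ± 0.16, 23.3% ± 0.87, 20.8% ± 0.45 and 19.7% ± 0.20 at the same times. The largest shift was in rbohD local leaves, from 23.1% ± 0.20 at 0 min to 17.03% ± 0.13 after 2 min, with 19.6% ± 0.07 after 4 min and 19.6% ± 0.58 after 8 min. The rbohD systemic share was 23.2% ± 0.49, 20.8% ± 0.21, 21.5% ± 0.11 and 21.5% ± 0.39. The complexes did not share one course: in WT systemic leaves the LHCII share was 7.42% at 0 min and 9.13% at 2 min, while the Rubisco small subunit share was 3.12% and 2.57%. In bulk leaf tissue, fewer cells of a type and less RNA per cell cannot be told apart.

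**Figure D1:**
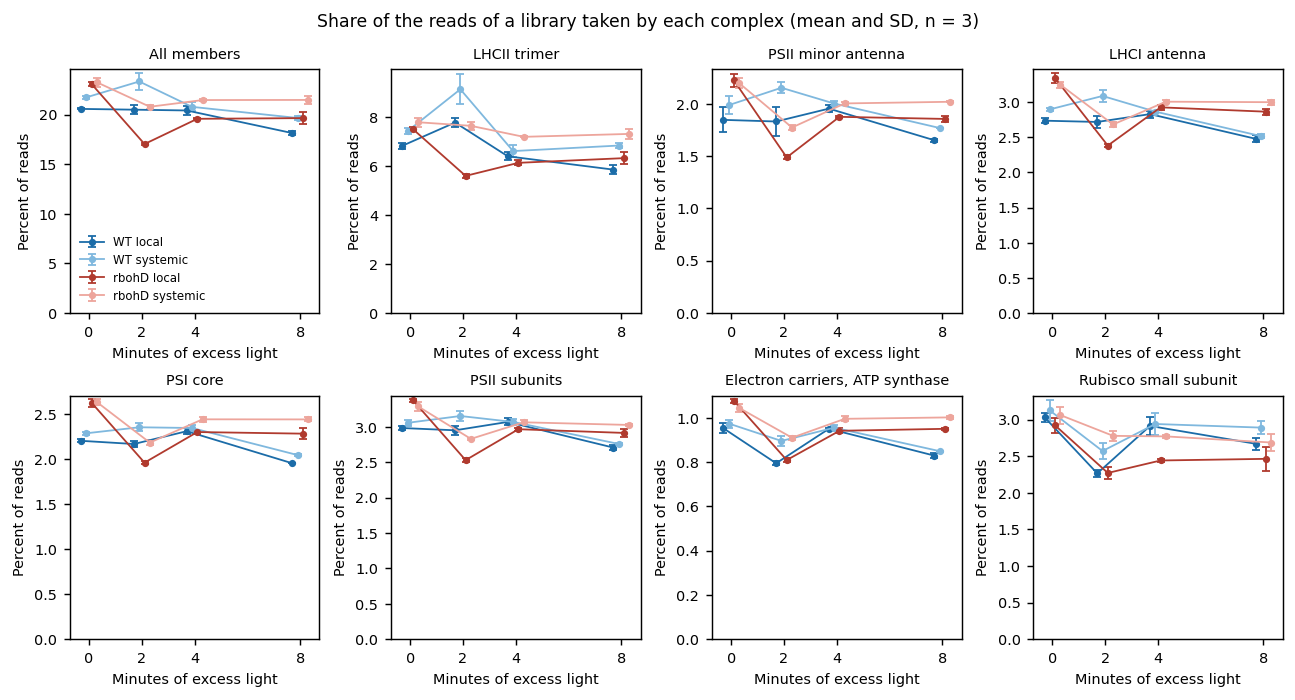
Share of the reads of a library, in percent, taken by all members and by each complex against minutes of excess light, for WT and rbohD local and systemic leaves. Points are means of 3 libraries and bars are SD, and the rbohD local share of all members is lowest at 2 min, at 17.03%.

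In WT local leaves most members were lower at 2 min in normalized counts, but how many were lower depended on the scaling. The Rubisco small subunit genes had the lowest median of the 7 complexes. By limma on log2(normalized count + 1), 40 of 50 members were called at 2 min (66.9% of all genes tested), 37 of them lower, where 33.5% of all genes were lower, and 3 higher (33.4% of all genes). The median log2 change was -0.42 for carriers and ATP synthase and -0.71 for the Rubisco small subunit, against -0.23 for all members and 0.01 for all genes. The 3 members that rose were LHCB1.4, LHCB7 and LHCB1.3. At 4 min the median member change was 0.04 and 6 members were called (23.8% of all genes), with 4 members higher (13% of all genes) and 2 lower (10.8%): LHCA3, LHCB4.2, PSAD-2 and PSBP-1 rose, and LHCB1.3 and LHCB4.3 fell. At 8 min 36 members were lower (22.6% of all genes) and LHCB7 was higher (22.9% of all genes), with a median of -0.20. Rescaling every library to one total moved the median of all genes at 2 min from 0.01 to 0.18, left 20 members lower and 8 higher, and moved the member median to -0.05. The same rescaling gave 5 higher and 5 lower at 4 min, where 3 members were called without replicate 1 of 4 min in place of 6.

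In WT systemic leaves, which received no excess light, fewer members passed the test at 2 and 4 min than at 8 min, when most were lower. At 2 min 24 of 50 members were called (60.3% of all genes), of which 20 were lower (29.9% of all genes lower) and 4 were higher (30.4% of all genes higher): LHCB1.4, LHCB1.3, LHCB7 and PETE1. The direction at 2 min depended on the scaling: rescaled to one total, the median of all genes moved from 0.03 to 0.14, and 18 members were higher and 10 lower, with member medians of -0.11 before and 0.00 after. All 4 Rubisco small subunit genes were lower at 2 min, with a median of -0.46, as were ATPC1 (-0.33), ATPD (-0.32) and PETE2 (-0.24). At 4 min 10 members were lower (14.1% of all genes) and 2, PSAD-2 and PSAG, were higher (13.9%), and the rescaled counts were 8 lower and 4 higher. At 8 min 44 members were lower (22.6% of all genes) and none was higher (21.8% of all genes), with a median of -0.29. The exceptions at 8 min were LHCB1.3, LHCB1.4, LHCB4.3, LHCB7, PSAG and RBCS1A, which did not pass the test, and after rescaling, which moved the median of all genes from -0.01 to 0.11, 36 were lower and 2 higher.

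The rbohD local leaves had the most members lower, and the lowest median, of the 4 combinations of genotype and leaf at 2 and 4 min. At 2 min 46 of 50 members were called (69.3% of all genes), of which 45 were lower (33.8% of all genes lower) with a median of -0.51, and LHCB7 was the single member higher (35.5% of all genes higher). LHCII genes had the lowest median of the complexes, -0.75, and the 4 members that did not pass the test were LHCB1.3, LHCB4.3, RBCS1B and RBCS2B. At 4 min 48 members were lower (23.1% of all genes lower), and at 8 min again 48 (16% of all genes lower), with medians of -0.28 and -0.21. LHCB7 was the single member higher at both times (25% and 19.1% of all genes higher) and RBCS2B the single member that did not pass the test. Of the 50 members, 45 were lower at all 3 times (10.9% of all genes), and 45 had a smaller absolute change at 8 min than at 2 min, as 77.9% of all genes did. Rescaled to one total, 45, 47 and 48 members were lower at 2, 4 and 8 min.

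The rbohD systemic leaves fell too, by less. At 2 min 45 members were called (63.3% of all genes), of which 40 were lower (31.5% of all genes lower), with a median of -0.21, and 5 were higher (31.8% of all genes higher): LHCB7, LHCB4.3, LHCB1.3, RBCS2B and RBCS1B. At 4 min 46 were called (25.8% of all genes), all of them lower (12.3% of all genes lower) and none was higher (13.5%), and at 8 min 41 were lower (6.79%) and none higher (7.51%), with medians of -0.17 and -0.15. The largest falls at 2 min were those of PSAD-2 (-0.78), LHCB2.3 (-0.63) and PETE1 (-0.57). Rescaled to one total, 40, 42 and 33 members were lower at the 3 times. Over both rbohD leaves 36 members were lower in all 6 comparisons, no member was lower in all 12 comparisons of the study, and every tested member was lower in at least 1. Of all genes tested, 2.12% were lower in all 6 rbohD comparisons, 0.145% in all 12 and 66.3% in at least 1.

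**Figure D2:**
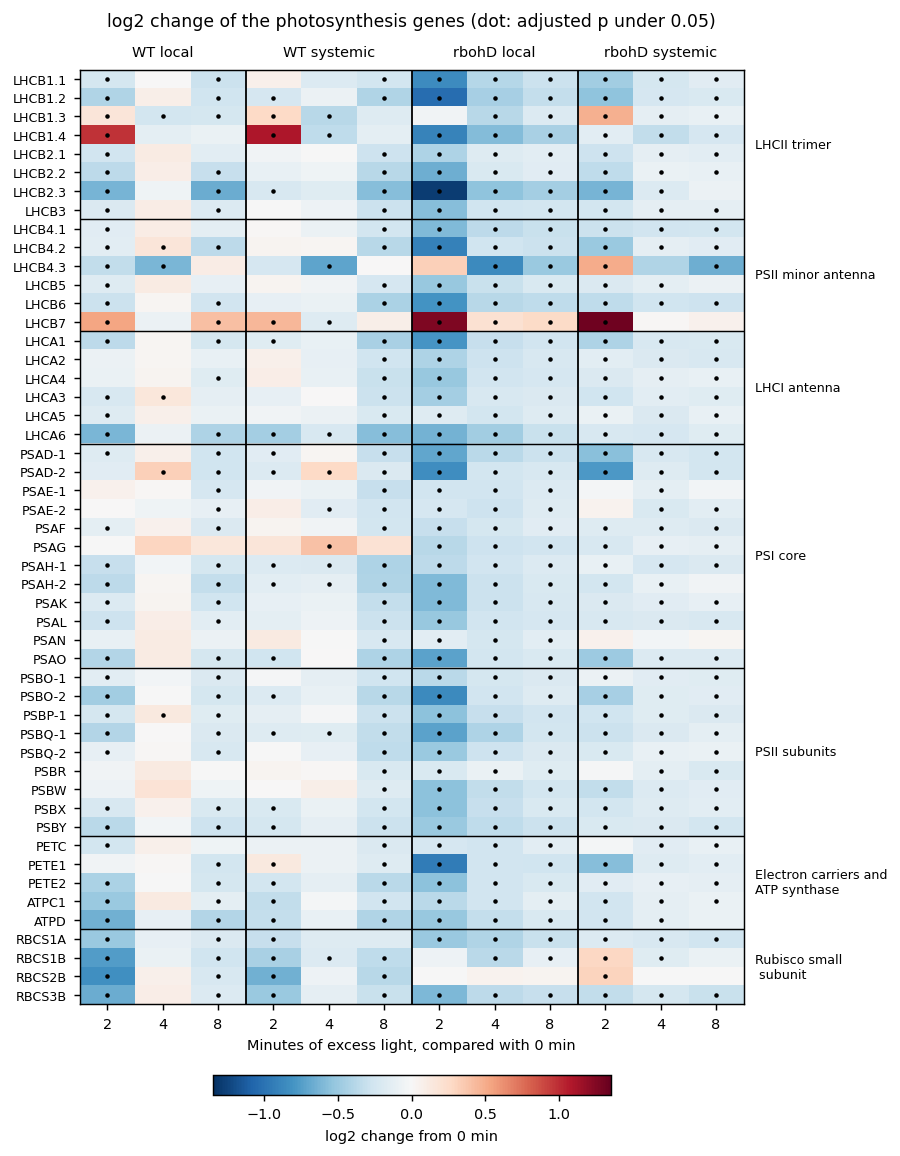
log2 change from 0 min of the 50 tested members (lines, grouped by complex) at 2, 4 and 8 min in each genotype and leaf (columns), red for higher and blue for lower, with a dot where the adjusted p was under 0.05. The rbohD local columns are blue for nearly all members, and LHCB1.4 at 2 min is red in both WT leaves (0.98 and 1.09) and blue in rbohD local leaves (-0.90).

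LHCB1.4 (AT2G34430, chr2:14524607-14525918, plus strand) encodes a chlorophyll a/b-binding protein of LHCII, the trimeric antenna of photosystem II, and was the member that the genotypes separated most. Its WT local libraries stood at 79744, 76489 and 82973 at 0 min, 152434, 159893 and 159599 after 2 min, 68758, 71096 and 78804 after 4 min and 77841, 72204 and 74221 after 8 min (normalized counts throughout). LHCB1.4 in the untreated WT leaves stood at 99827, 103807 and 99330 at 0 min, 244910, 206702 and 196147 after 2 min, 79686, 75828 and 83067 after 4 min and 93454, 88447 and 94043 after 8 min. All 3 libraries of 2 min lay far above every other library of their table. LHCB1.4 in the lit rbohD leaves stood at 97499, 89672 and 88579 at 0 min, 51361, 47406 and 48736 after 2 min, 60490, 62588 and 60509 after 4 min and 63111, 69304 and 71712 after 8 min. LHCB1.4 in the untreated rbohD leaves stood at 90034, 96740 and 92263 at 0 min, 87881, 81984 and 82058 after 2 min, 74662, 72706 and 73778 after 4 min and 75908, 80652 and 81512 after 8 min. In rbohD every later library lay below every one of 0 min. At 2 min LHCB1.4 rose by a log2 change of 0.98 ± 0.05 (SE, adjusted p = 2.59e-13) in WT local and 1.09 ± 0.07 (SE, adjusted p = 1.55e-11) in WT systemic leaves. It changed by -0.90 ± 0.04 (SE, adjusted p = 6.80e-18) in rbohD local and -0.15 ± 0.03 (SE, adjusted p = 0.00012) in rbohD systemic leaves. By 4 min the WT rise was gone, with changes of -0.13 ± 0.05 (SE, adjusted p = 0.0787) and -0.35 ± 0.07 (SE, adjusted p = 0.000871). It shares 7.27% of its 75-base windows with LHCB1.5, which was listed at 0.

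LHCB1.3, the most abundant LHCII gene, had libraries of 746791, 694798 and 731903 at 0 min, 786569, 810547 and 832014 after 2 min, 589267, 605150 and 634162 after 4 min and 638103, 577241 and 632858 after 8 min in WT local leaves. LHCB1.3 in the untreated WT leaves stood at 878266, 816623 and 821902 at 0 min, 1150410, 959351 and 936521 after 2 min, 642515, 593700 and 701711 after 4 min and 738496, 728690 and 767422 after 8 min. The 2 min libraries of WT were above those of 0 min in both leaves, and those of 4 min were below in both. LHCB1.3 in the lit rbohD leaves stood at 435087, 423680 and 427391 at 0 min, 421925, 411315 and 406907 after 2 min, 333442, 340461 and 318629 after 4 min and 352768, 379163 and 397737 after 8 min. LHCB1.3 in the untreated rbohD leaves stood at 437151, 473742 and 459197 at 0 min, 654673, 638289 and 614972 after 2 min, 415650, 422902 and 416653 after 4 min and 401918, 436642 and 436785 after 8 min. Every later group of the lit rbohD leaf lay below 0 min, and of the untreated one the 2 min libraries alone lay above. The rise of LHCB1.3 at 2 min was largest in rbohD systemic leaves, at 0.48 ± 0.04 (SE, adjusted p = 7.11e-15). In WT it was 0.16 ± 0.07 (SE, adjusted p = 0.0436) in local and 0.27 ± 0.11 (SE, adjusted p = 0.0366) in systemic leaves, and these calls were not stable. The local call was lost without replicate 2 or 3 of 0 min or of 2 min, and the systemic call without replicate 2 or 3 of 0 min or replicate 1 of 2 min. In rbohD local leaves the change was -0.05 ± 0.04 (SE, adjusted p = 0.245).

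LHCB1.2, a neighbour of LHCB1.3 on chromosome 1 with the same role, stood at 201382, 204243 and 212391 at 0 min, 146126, 159406 and 161168 after 2 min, 214537, 211584 and 227894 after 4 min and 176255, 166728 and 168870 after 8 min in WT local leaves. LHCB1.2 in the untreated WT leaves stood at 237445, 231499 and 235293 at 0 min, 222392, 188553 and 190986 after 2 min, 222292, 210426 and 236497 after 4 min and 176840, 174219 and 179280 after 8 min. In WT every library of 2 min was below every one of 0 min, and the groups of 4 min and 0 min overlapped. LHCB1.2 in the lit rbohD leaves stood at 203602, 199955 and 198534 at 0 min, 99429, 98276 and 97144 after 2 min, 146037, 149478 and 147169 after 4 min and 149361, 162559 and 169576 after 8 min. LHCB1.2 in the untreated rbohD leaves stood at 196942, 218092 and 209519 at 0 min, 145542, 143107 and 139869 after 2 min, 177215, 178634 and 179056 after 4 min and 170624, 184605 and 185877 after 8 min. In both rbohD leaves every later library was below every one of 0 min. LHCB1.2 fell with a log2 change of -1.03 ± 0.04 (SE, adjusted p = 1.88e-20) at 2 min in rbohD local and -0.54 ± 0.03 (SE, adjusted p = 2.65e-17) in rbohD systemic leaves. In WT the changes were -0.41 ± 0.05 (SE, adjusted p = 8.45e-07) and -0.23 ± 0.08 (SE, adjusted p = 0.0117), and the systemic call was lost without replicate 2 or without replicate 3 of 2 min.

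LHCB2.3, a further LHCB2 gene of LHCII, had the lowest change of any member and time, in rbohD local leaves at 2 min. Its WT local libraries were 40721, 37510 and 41918 at 0 min, 24762, 26729 and 25970 after 2 min, 37313, 37140 and 40663 after 4 min and 26265, 24497 and 24706 after 8 min. LHCB2.3 in the untreated WT leaves stood at 48832, 49271 and 46592 at 0 min, 47461, 39498 and 37944 after 2 min, 44245, 40343 and 44686 after 4 min and 33269, 31360 and 32635 after 8 min. In WT local leaves the gene was low at 2 and 8 min, while the 4 and 0 min groups overlapped. LHCB2.3 in the lit rbohD leaves stood at 41750, 38167 and 38912 at 0 min, 17220, 15874 and 15864 after 2 min, 27194, 27596 and 26783 after 4 min and 28362, 28818 and 29322 after 8 min. LHCB2.3 in the untreated rbohD leaves stood at 40764, 43594 and 42531 at 0 min, 28780, 27175 and 26172 after 2 min, 37328, 37291 and 37350 after 4 min and 38841, 39929 and 41306 after 8 min. All later rbohD groups lay below 0 min but that of systemic leaves after 8 min, which overlapped. At 2 min LHCB2.3 fell with a log2 change of -1.28 ± 0.03 (SE, adjusted p = 3.27e-23) in rbohD local, -0.63 ± 0.03 (SE, adjusted p = 1.03e-20) in rbohD systemic and -0.63 ± 0.05 (SE, adjusted p = 1.06e-10) in WT local leaves. The WT systemic change of -0.22 ± 0.07 (SE, adjusted p = 0.007) did not pass after rescaling or without replicate 3 of 2 min. The remaining LHCII genes, LHCB1.1, LHCB2.1, LHCB2.2 and LHCB3, fell in all 6 rbohD comparisons, with 2 min local changes of -0.85, -0.42, -0.66 and -0.58.

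**Figure D3:**
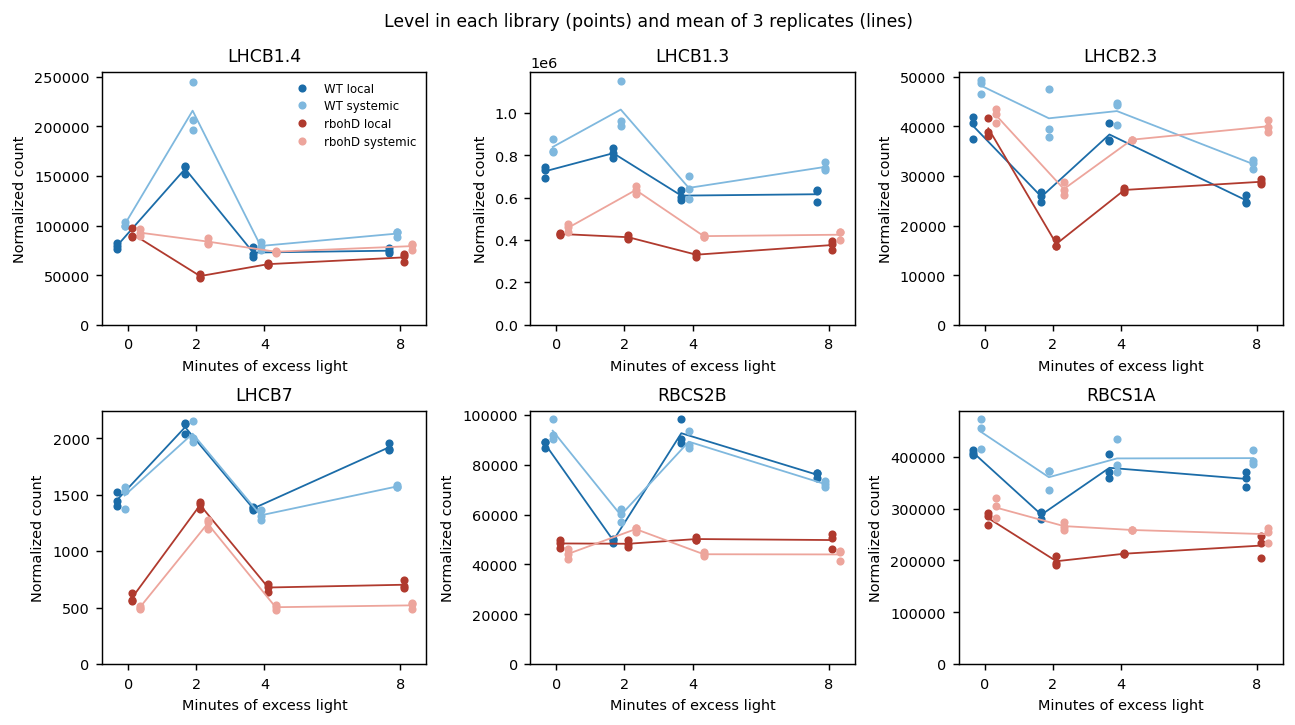
Normalized counts in each library (points) and means of 3 replicates (lines) against minutes of excess light for 6 members, in WT and rbohD local and systemic leaves. LHCB1.4 peaks at 2 min in WT only, LHCB7 is highest at 2 min in all 4 tables, and RBCS2B dips at 2 min in WT only.

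The minor antenna links the LHCII trimers to the photosystem II core. LHCB5 (CP26), its most abundant gene, stood at 160093 to 190602 at 0 min, 136024 to 174146 after 2 min, 189773 to 199084 after 4 min and 162097 to 168719 after 8 min in WT local leaves. LHCB5 in the untreated WT leaves stood at 190056 to 221079 at 0 min, 205802 to 228256 after 2 min, 193546 to 208652 after 4 min and 174450 to 179858 after 8 min. The WT groups of LHCB5 overlapped between 0 and 2 min. LHCB5 in the lit rbohD leaves stood at 143581 to 149512 at 0 min, 101070 to 105761 after 2 min, 116541 to 120571 after 4 min and 125034 to 129547 after 8 min. LHCB5 in the untreated rbohD leaves stood at 138393 to 151518 at 0 min, 124637 to 127718 after 2 min, 131094 to 133572 after 4 min and 133264 to 140043 after 8 min. The rbohD groups after 0 min all lay below it except the systemic group of 8 min, which overlapped. LHCB5 fell with a log2 change of -0.51 ± 0.03 (SE, adjusted p = 1.52e-14) at 2 min in rbohD local and with one of -0.20 ± 0.03 (SE, adjusted p = 5.44e-07) in rbohD systemic leaves. Its change of -0.17 ± 0.08 (SE, adjusted p = 0.0497) in WT local leaves was lost under 7 other settings and without replicate 2 or 3 of 0 min or replicate 1 of 2 min, and in WT systemic leaves it was 0.04 ± 0.07 (SE, adjusted p = 0.69). LHCB4.1, LHCB4.2 (CP29) and LHCB6 (CP24) fell in rbohD local leaves at 2 min with log2 changes of -0.60, -0.91 and -0.80.

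LHCB7 (AT1G76570, chr1:28728998-28730851, plus strand) is a weakly expressed relative of these antenna genes. It was higher in 7 of the 12 comparisons and lower in 1. Its WT local libraries stood at 1441, 1400 and 1520 at 0 min, 2124, 2136 and 2033 after 2 min, 1385, 1361 and 1388 after 4 min and 1908, 1960 and 1893 after 8 min. LHCB7 in the untreated WT leaves stood at 1374, 1569 and 1535 at 0 min, 2153, 1965 and 2001 after 2 min, 1275, 1368 and 1308 after 4 min and 1588, 1564 and 1564 after 8 min. The 2 min libraries were the highest of the WT tables. LHCB7 in the lit rbohD leaves stood at 630.9, 561.9 and 570.5 at 0 min, 1437, 1375 and 1413 after 2 min, 683.2, 639.8 and 711.9 after 4 min and 742.1, 689.4 and 676.9 after 8 min. LHCB7 in the untreated rbohD leaves stood at 487.6, 495.8 and 512.6 at 0 min, 1193, 1262 and 1276 after 2 min, 523.1, 483.2 and 505.3 after 4 min and 531.9, 543.8 and 485.1 after 8 min. The 2 min groups did not overlap with any other time in any of the 4 tables. LHCB7 rose at 2 min by 0.53 ± 0.04 (SE, adjusted p = 1.45e-10) in WT local, 0.45 ± 0.05 (SE, adjusted p = 1.04e-07) in WT systemic, 1.26 ± 0.05 (SE, adjusted p = 8.26e-19) in rbohD local and 1.32 ± 0.05 (SE, adjusted p = 3.53e-24) in rbohD systemic leaves. The single fall of LHCB7 was in WT systemic leaves at 4 min, at -0.18 ± 0.05 (SE, adjusted p = 0.0114). At 8 min it was again higher in WT local leaves, at 0.40 ± 0.04 (SE, adjusted p = 4.92e-08), and in WT systemic leaves the change was 0.08 ± 0.05 (SE, adjusted p = 0.238).

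LHCB4.3, a further CP29 gene, was the weakest of the tested members. The WT local libraries of LHCB4.3 stood at 101.6 to 130.6 at 0 min, 89.7 to 96.0 after 2 min, 71.7 to 78.7 after 4 min and 119.3 to 129.7 after 8 min. LHCB4.3 in the untreated WT leaves stood at 136.6 to 179.7 at 0 min, 115.4 to 148.2 after 2 min, 91.2 to 107.4 after 4 min and 151.6 to 174.5 after 8 min. The 4 min libraries were the lowest group in both WT leaves. LHCB4.3 in the lit rbohD leaves stood at 52.5 to 74.0 at 0 min, 76.8 to 82.4 after 2 min, 30.6 to 39.6 after 4 min and 40.2 to 49.9 after 8 min. LHCB4.3 in the untreated rbohD leaves stood at 68.1 to 101.3 at 0 min, 95.6 to 145.1 after 2 min, 50.7 to 70.4 after 4 min and 41.9 to 58.3 after 8 min. The rbohD local libraries were above 0 min after 2 min and below it later, and of the systemic groups that of 8 min alone did not overlap with 0 min. At 4 min LHCB4.3 fell with a log2 change of -0.62 ± 0.11 (SE, adjusted p = 0.000319) in WT local, -0.71 ± 0.12 (SE, adjusted p = 0.000109) in WT systemic and -0.85 ± 0.16 (SE, adjusted p = 7.30e-05) in rbohD local leaves. In rbohD systemic leaves it changed by 0.51 ± 0.16 (SE, adjusted p = 0.00715) at 2 min, a call lost without replicate 3 of 0 min or replicate 1 of 2 min, and by -0.66 ± 0.16 (SE, adjusted p = 0.00387) at 8 min, lost without replicate 1 of 0 min.

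The LHCI belt gathers light for photosystem I. LHCA4, its most abundant gene, stood at 202073 to 217437 at 0 min, 182859 to 207981 after 2 min, 210563 to 225233 after 4 min and 183879 to 192760 after 8 min in WT local leaves. LHCA4 in the untreated WT leaves stood at 237332 to 249131 at 0 min, 249368 to 278324 after 2 min, 221460 to 233240 after 4 min and 192739 to 200784 after 8 min. In both WT leaves the 2 min libraries overlapped with or lay above those of 0 min. LHCA4 in the lit rbohD leaves stood at 171849 to 178985 at 0 min, 121299 to 124425 after 2 min, 145154 to 146830 after 4 min and 147240 to 153463 after 8 min. LHCA4 in the untreated rbohD leaves stood at 162984 to 174802 at 0 min, 146193 to 149844 after 2 min, 153506 to 157258 after 4 min and 152698 to 160619 after 8 min. Both rbohD leaves had every later library below every one of 0 min. LHCA4 fell with a log2 change of -0.51 ± 0.03 (SE, adjusted p = 1.22e-14) at 2 min in rbohD local and with one of -0.19 ± 0.03 (SE, adjusted p = 1.08e-06) in rbohD systemic leaves, and the WT changes were -0.09 ± 0.06 (SE, adjusted p = 0.179) and 0.09 ± 0.07 (SE, adjusted p = 0.269). LHCA6, which together with LHCA5 links photosystem I to the chloroplast NDH complex, fell in 11 of the 12 comparisons. PSAH-1 and PSBQ-1, outside LHCI, also fell in 11. The log2 change of LHCA6 at 2 min was -0.62 in WT local and -0.46 in WT systemic leaves. The other LHCI genes fell in 7 to 10 comparisons. In WT at 2 min LHCA1 fell in both leaves (-0.36 and -0.17) and LHCA3 in local leaves (-0.22), while LHCA2 changed by -0.08 and 0.07 and did not pass, and LHCA6 was not tested against them.

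Of the photosystem I core genes, PSAL, which encodes a subunit on the side where LHCII docks, had the highest level per kilobase. PSAL stood at 97154 to 100242 at 0 min, 78186 to 83530 after 2 min, 101538 to 108639 after 4 min and 88043 to 90805 after 8 min in WT local leaves. PSAL in the untreated WT leaves stood at 105357 to 113912 at 0 min, 95245 to 106241 after 2 min, 98747 to 108603 after 4 min and 87310 to 91179 after 8 min. The WT local libraries of 2 min lay below all others of that leaf. PSAL in the lit rbohD leaves stood at 74555 to 79516 at 0 min, 52985 to 54773 after 2 min, 62982 to 65065 after 4 min and 62364 to 68711 after 8 min. PSAL in the untreated rbohD leaves stood at 73683 to 78476 at 0 min, 64069 to 66337 after 2 min, 65028 to 67365 after 4 min and 63489 to 66255 after 8 min. In rbohD the 0 min libraries were the highest of both leaves, with no overlap. At 2 min PSAL fell with a log2 change of -0.28 ± 0.05 (SE, adjusted p = 1.01e-05) in WT local, -0.51 ± 0.03 (SE, adjusted p = 7.38e-14) in rbohD local and -0.21 ± 0.03 (SE, adjusted p = 3.81e-08) in rbohD systemic leaves.

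PSAD-2 encodes a stromal subunit of photosystem I near the ferredoxin docking site. The PSAD-2 libraries of WT local leaves were 19276, 15949 and 15509 at 0 min, 16224, 14287 and 15061 after 2 min, 19753, 20624 and 22873 after 4 min and 13836, 13292 and 14980 after 8 min. PSAD-2 in the untreated WT leaves stood at 18177, 15002 and 17297 at 0 min, 15922, 13521 and 15041 after 2 min, 19360, 19432 and 22108 after 4 min and 13942, 14909 and 14965 after 8 min. In both WT leaves every library of 4 min was above every one of 0 min. PSAD-2 in the lit rbohD leaves stood at 18911, 19660 and 19278 at 0 min, 10556, 10990 and 10845 after 2 min, 16030, 16308 and 16258 after 4 min and 15036, 17102 and 17748 after 8 min. PSAD-2 in the untreated rbohD leaves stood at 16949, 19257 and 19708 at 0 min, 10423, 10754 and 11381 after 2 min, 16245, 16847 and 16539 after 4 min and 14634, 16602 and 15914 after 8 min. Later rbohD libraries all lay below those of 0 min, and those of 2 min were lowest. PSAD-2 rose at 4 min in WT, by 0.32 ± 0.07 (SE, adjusted p = 0.00118) in local and 0.27 ± 0.07 (SE, adjusted p = 0.00384) in systemic leaves. At 2 min it fell with a log2 change of -0.84 ± 0.04 (SE, adjusted p = 1.65e-17) in rbohD local and -0.78 ± 0.04 (SE, adjusted p = 3.11e-20) in rbohD systemic leaves, about equally in the lit and the untreated leaf. Its paralogue PSAD-1 fell at 2 min in all 4 tables, with log2 changes of -0.17, -0.15, -0.70 and -0.56 in WT local, WT systemic, rbohD local and rbohD systemic leaves.

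The photosystem II subunits behaved alike in rbohD, where all 9 fell in local leaves at every time. PSBO-1, the main manganese-stabilizing protein of the oxygen-evolving complex, had the highest normalized count of them, though PSBR was higher per kilobase. PSBO-1 stood at 161180 to 165772 at 0 min, 146237 to 148647 after 2 min, 154761 to 164516 after 4 min and 138472 to 147683 after 8 min in WT local leaves. PSBO-1 in the untreated WT leaves stood at 168077 to 181122 at 0 min, 165092 to 185537 after 2 min, 153606 to 166332 after 4 min and 140531 to 146069 after 8 min. The WT systemic groups of 0 and 2 min overlapped. PSBO-1 in the lit rbohD leaves stood at 118774 to 124028 at 0 min, 92490 to 94966 after 2 min, 101586 to 103204 after 4 min and 101376 to 109045 after 8 min. PSBO-1 in the untreated rbohD leaves stood at 112949 to 121879 at 0 min, 109876 to 114600 after 2 min, 105659 to 106496 after 4 min and 102638 to 107648 after 8 min. The rbohD groups lay below 0 min with no overlap, except that of systemic leaves after 2 min. PSBO-1 fell with a log2 change of -0.36 ± 0.03 (SE, adjusted p = 4.68e-11) at 2 min in rbohD local leaves. Its WT local change of -0.15 ± 0.05 (SE, adjusted p = 0.0103) turned to 0.026 after rescaling to one total, so its direction depended on the scaling. The second copy, PSBO-2, fell by more at 2 min in rbohD local leaves (-0.86) and in WT local leaves (-0.47).

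Plastocyanin carries electrons between the cytochrome complex and photosystem I. PETE2, the abundant plastocyanin gene, stood at 110085 to 114988 at 0 min, 83337 to 84810 after 2 min, 110988 to 114390 after 4 min and 93999 to 96812 after 8 min in WT local leaves. PETE2 in the untreated WT leaves stood at 119497 to 128719 at 0 min, 100885 to 109352 after 2 min, 111189 to 118955 after 4 min and 95206 to 97005 after 8 min. In WT every library of 2 min and of 8 min lay below every one of 0 min. PETE2 in the lit rbohD leaves stood at 88148 to 90304 at 0 min, 59342 to 61069 after 2 min, 73279 to 75083 after 4 min and 75745 to 78502 after 8 min. PETE2 in the untreated rbohD leaves stood at 81570 to 87904 at 0 min, 75808 to 77194 after 2 min, 76680 to 80080 after 4 min and 77180 to 79880 after 8 min. No rbohD library after 0 min reached the lowest one of 0 min in its leaf. PETE2 fell with a log2 change of -0.42 ± 0.04 (SE, adjusted p = 1.29e-08) in WT local, -0.24 ± 0.06 (SE, adjusted p = 0.00125) in WT systemic, -0.56 ± 0.03 (SE, adjusted p = 3.49e-16) in rbohD local and -0.15 ± 0.03 (SE, adjusted p = 2.17e-05) in rbohD systemic leaves at 2 min. The weaker plastocyanin gene PETE1 differed between genotypes: its changes at 2 min were -0.04 in WT local (not past the test) and 0.13 in WT systemic leaves, and -0.95 and -0.57 in rbohD local and systemic leaves. ATPC1 and ATPD, the gamma and delta subunits of ATP synthase, fell with log2 changes of -0.50 and -0.65 in WT local leaves at 2 min and with changes of -0.36 and -0.51 in rbohD local leaves.

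Rubisco small subunit genes fell at 2 min in WT, and in rbohD the family split. RBCS1A, its most abundant gene, stood at 404371 to 412433 at 0 min, 279778 to 293904 after 2 min, 359805 to 406081 after 4 min and 341720 to 370536 after 8 min in WT local leaves. RBCS1A in the untreated WT leaves stood at 415230 to 473422 at 0 min, 336622 to 373534 after 2 min, 371539 to 433949 after 4 min and 386183 to 413377 after 8 min. Every library of 2 min lay below every one of 0 min in both WT leaves. RBCS1A in the lit rbohD leaves stood at 268006 to 291471 at 0 min, 191937 to 209171 after 2 min, 212038 to 213809 after 4 min and 205424 to 246903 after 8 min. RBCS1A in the untreated rbohD leaves stood at 281330 to 320605 at 0 min, 258662 to 275018 after 2 min, 258189 to 259669 after 4 min and 233562 to 263468 after 8 min. The later rbohD groups all lay below 0 min too. RBCS1A fell with a log2 change of -0.50 ± 0.06 (SE, adjusted p = 2.02e-07) in WT local and -0.50 ± 0.05 (SE, adjusted p = 1.28e-10) in rbohD local leaves at 2 min.

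RBCS2B (AT5G38420, chr5:15380907-15382071, minus strand) lies beside RBCS1B and RBCS3B on chromosome 5. The WT local libraries of RBCS2B were 89032, 89215 and 86575 at 0 min, 48611, 50361 and 49938 after 2 min, 90540, 88961 and 98586 after 4 min and 76684, 76655 and 74629 after 8 min. RBCS2B in the untreated WT leaves stood at 92124, 90532 and 98401 at 0 min, 62205, 57113 and 60091 after 2 min, 86697, 87804 and 93382 after 4 min and 71038, 72196 and 73658 after 8 min. All 3 libraries of 2 min lay below every other WT library of their leaf, and those of 4 min overlapped with 0 min. RBCS2B in the lit rbohD leaves stood at 48645, 50008 and 46695 at 0 min, 48030, 49783 and 47147 after 2 min, 49760, 49706 and 51180 after 4 min and 46341, 50829 and 52257 after 8 min. RBCS2B in the untreated rbohD leaves stood at 42135, 46194 and 44264 at 0 min, 54697, 53098 and 54828 after 2 min, 44115, 44822 and 43403 after 4 min and 41568, 45549 and 44982 after 8 min. The rbohD local groups all overlapped with 0 min, and in rbohD systemic leaves the 2 min libraries lay above. RBCS2B fell with a log2 change of -0.83 ± 0.05 (SE, adjusted p = 3.16e-13) in WT local and -0.65 ± 0.06 (SE, adjusted p = 1.66e-09) in WT systemic leaves at 2 min, and rose by 0.30 ± 0.03 (SE, adjusted p = 1.75e-10) in rbohD systemic leaves. In rbohD local leaves its change was -0.00 ± 0.04 (SE, adjusted p = 0.936).

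RBCS1B followed RBCS2B at 2 min. The WT local libraries of RBCS1B were 73602, 76706 and 75066 at 0 min, 42847, 45204 and 45829 after 2 min, 70347, 68283 and 73607 after 4 min and 62108, 61621 and 62770 after 8 min. RBCS1B in the untreated WT leaves stood at 80765, 77683 and 85315 at 0 min, 63636, 56550 and 60493 after 2 min, 69763, 67789 and 77404 after 4 min and 62744, 63572 and 65353 after 8 min. The 2 min libraries were the lowest of WT local leaves and did not overlap with 0 min in either WT leaf. RBCS1B in the lit rbohD leaves stood at 36500, 37526 and 36886 at 0 min, 34981, 36202 and 34633 after 2 min, 28342, 28931 and 28911 after 4 min and 31610, 34646 and 36329 after 8 min. RBCS1B in the untreated rbohD leaves stood at 36794, 40402 and 38926 at 0 min, 47378, 45618 and 48153 after 2 min, 34529, 34829 and 34095 after 4 min and 34509, 37945 and 36907 after 8 min. After 2 min the rbohD libraries lay just below 0 min in local leaves and above it in systemic leaves. RBCS1B changed by -0.75 ± 0.04 (SE, adjusted p = 7.84e-13) in WT local, -0.43 ± 0.06 (SE, adjusted p = 2.64e-06) in WT systemic, -0.07 ± 0.04 (SE, adjusted p = 0.0974) in rbohD local and 0.28 ± 0.03 (SE, adjusted p = 6.56e-10) in rbohD systemic leaves at 2 min. RBCS3B, which completes the cluster, fell in all 4 tables at 2 min, with log2 changes of -0.67, -0.50, -0.60 and -0.33 in the same order.

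The make-up of the gene families shifted between 0 and 2 min, as a share of the family's normalized counts within a library. LHCB1.3 held 48.9% ± 0.27 (SD, n = 3) of the LHCB1 counts in rbohD local leaves at 0 min and 63.9% ± 0.10 at 2 min, and 49.3% ± 0.23 and 64.6% ± 0.27 in rbohD systemic leaves. In WT it held 61.2% ± 0.71 and 63.8% ± 0.32 in local leaves at these times, and 60.9% ± 0.74 and 61.7% ± 0.53 in systemic leaves. LHCB1.4 went from 6.74% ± 0.16 to 12.4% ± 0.16 of the LHCB1 counts in WT local leaves, and from 7.34% ± 0.34 to 13.1% ± 0.26 in WT systemic leaves. The LHCB1.4 share of rbohD local leaves was 10.5% ± 0.38 at 0 min and 7.59% ± 0.22 after 2 min. RBCS2B went from 12.6% ± 0.17 to 10.7% ± 0.31 of the RBCS counts in WT local leaves, against 10.2% ± 0.37 and 13.7% ± 0.19 in rbohD local leaves. The 0 and 2 min libraries overlapped for LHCB1.3 in WT systemic leaves and in no other of these pairs, and the shares were not tested.

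**Figure D4:**
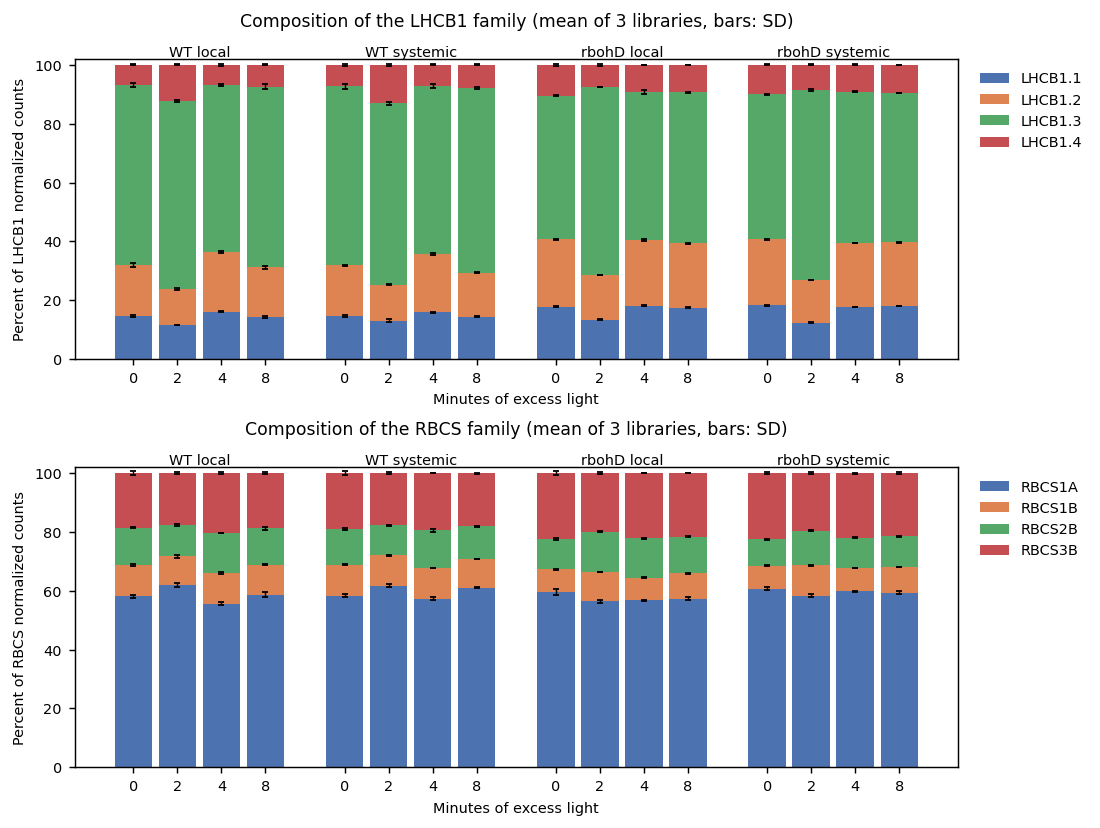
Percent of the normalized counts of the LHCB1 family (top) and the RBCS family (bottom) held by each gene, as the mean of 3 libraries, against minutes of excess light in each genotype and leaf. The bar at the top of a segment is the SD of that gene's share, and LHCB1.3 widens from 48.9% to 63.9% between 0 and 2 min in rbohD local leaves.

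Whether the response depended on genotype was tested as the WT change minus the rbohD change. In local leaves at 2 min 41 members were called (54.4% of all genes), and the difference was above 0 for 35 of 50 members (24.6% of all genes) and below 0 for 6 (29.7%), with a median of 0.31. At 4 min it was above 0 for 46 (15.9% of all genes) and below 0 for 1, LHCB7 (17.5%), with a median of 0.33. The rbohD change was thus the lower one for most members at both times. The 6 members below 0 at 2 min were RBCS2B, LHCB7, RBCS1B, LHCB4.3, ATPD and ATPC1. By 8 min 2 members were above 0 (6.92% of all genes) and 4 below (11.5%), with a median of 0.02, and 3 were called without WT replicate 3 of 8 min. After rescaling, the counts above and below 0 were 39 and 4 at 2 min, with the median of all genes moving from -0.01 to 0.10, 42 and 1 at 4 min, and 7 and 5 at 8 min.

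LHCB1.4 had the highest genotype difference of any member, at 1.88 ± 0.07 (SE, adjusted p = 2.81e-22) in local and 1.24 ± 0.08 (SE, adjusted p = 4.61e-16) in systemic leaves at 2 min, and RBCS2B the lowest, at -0.83 ± 0.06 (SE, adjusted p = 3.03e-14) and -0.94 ± 0.06 (SE, adjusted p = 2.47e-15). PETE1 (0.90 and 0.70), LHCB4.2 (0.77 and 0.54) and PSAD-2 (0.69 and 0.60) were also above 0 in both leaves. LHCB7 was below 0 in both (-0.73 and -0.86), as its 2 min rise was larger in rbohD. RBCS1A did not differ past the test in local leaves at 2 min, at 0.00 ± 0.08 (SE, adjusted p = 0.969). Every LHCII gene but LHCB2.1 differed in local leaves at 2 min, and its difference was 0.16.

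In systemic leaves 30 members were called at 2 min (55.8% of all genes), and the genotype difference was above 0 for 25 members (26.4% of all genes) and below 0 for 5 (29.4%), with a median of 0.13. At 4 min it was above 0 for 7 members (8.26% of all genes) and below 0 for none (10.2%), with a median of 0.07, and without WT replicate 2 of 4 min 13 members were called. At 8 min the sign turned: it was above 0 for 1, LHCB4.3 (16.8% of all genes), and below 0 for 20 (19%), with a median of -0.14. LHCB2.3 (-0.49) and LHCA6 (-0.41) had the lowest values there. After rescaling, the counts above and below 0 were 35 and 4 at 2 min, with the median of all genes moving from 0.01 to 0.14, 14 and 1 at 4 min, and 4 and 19 at 8 min. The WT and the rbohD libraries carry different experiment labels and were normalized apart. Genotype, experiment label and table thus coincide, and differences between genotypes, experiments or tables cannot be told apart in either leaf.

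**Figure D5:**
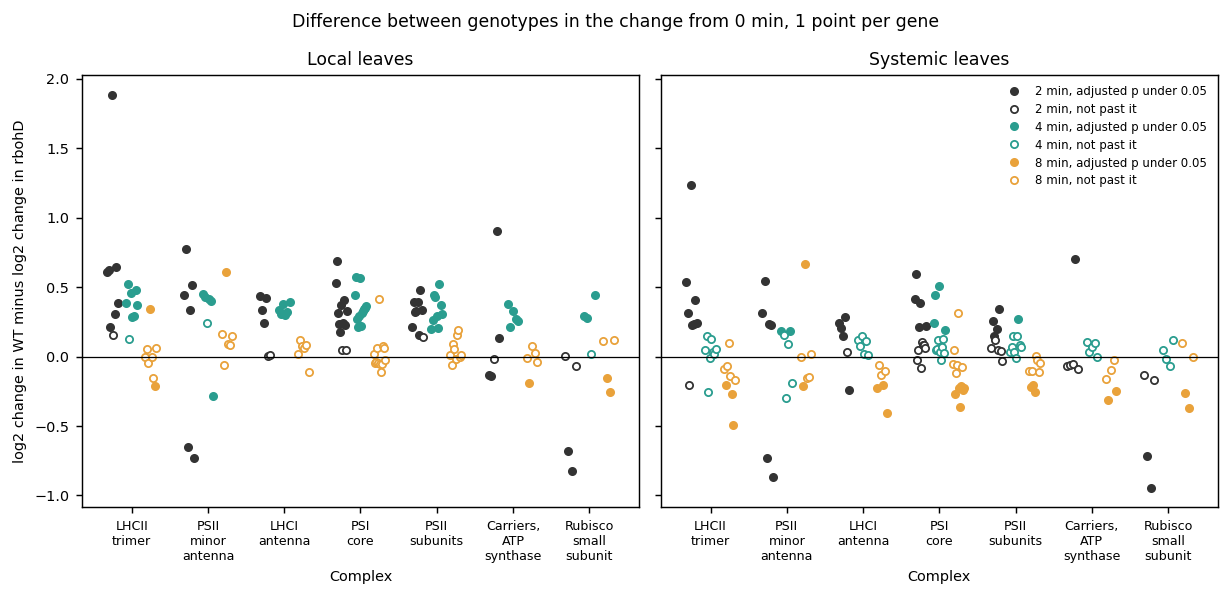
Difference between the log2 change from 0 min in WT and that in rbohD for each tested member (1 point per gene), by complex, at 2, 4 and 8 min, in local and systemic leaves. Filled points passed an adjusted p of 0.05. Most points at 2 and 4 min in local leaves lie above 0, LHCB1.4 is at 1.88, and RBCS2B at -0.83.

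Whether the lit and the untreated leaf responded alike was tested as the local change minus the systemic change. In WT 9 of 50 members were below 0 at 2 min (6.72% of all genes) and none was above (5.33%). The median was -0.17, and 25 members had an unadjusted p under 0.05 by limma. DESeq2 called 18 members, all below 0, and 5 were called by limma without replicate 2 of systemic 0 min. LHCB2.3 had the lowest value, at -0.41 ± 0.09 (SE, adjusted p = 0.00168). At 4 min no member passed by limma (6.35% of all genes), edgeR or DESeq2, and 12 had an unadjusted p under 0.05 by limma. At 8 min LHCB7 alone was above 0, at 0.32 ± 0.07 (SE, adjusted p = 0.000475), and no member was below (13.8% of all genes called in either direction). With the plant pool as a block 2 members were called at 8 min, 9 by edgeR and 10 by DESeq2, and after rescaling, which moved the median of all genes from -0.01 to -0.12, 1 was above and 3 below 0. Between 2 and 3 were called there without replicate 1 of local 0 min, replicate 3 of local 8 min or replicate 3 of systemic 0 min.

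In rbohD the local leaf fell further than the systemic leaf. At 2 min 43 of 50 members were below 0 (14.5% of all genes), with a median of -0.30, and LHCII genes had a median of -0.44. LHCB1.4 had the lowest value, at -0.75 ± 0.06 (SE, adjusted p = 1.93e-14), followed by LHCB2.3 at -0.65 ± 0.05 (SE, adjusted p = 3.99e-14). At 4 min 22 members were below 0 (8.43% of all genes) and at 8 min 11 (9.02%), and none was above 0 at any of the 3 times (11.3%, 8.16% and 11.9% of all genes). The members not past the test at 2 min included PSAD-2, at -0.06 ± 0.06 (SE, adjusted p = 0.547), and LHCB7, at -0.06 ± 0.07 (SE, adjusted p = 0.638). With the plant pool as a block 17 members were called at 8 min, and 28 were below 0 after rescaling. That count ranged from 6 to 18 when single libraries were left out, with 6 without replicate 1 of local 0 min, replicate 1 of local 8 min, or replicate 1 or 3 of systemic 0 min, 7 without replicate 2 of local 0 min, replicate 2 of local 8 min, or replicate 2 or 3 of systemic 8 min, 17 without replicate 2 of systemic 0 min and 18 without replicate 3 of local 8 min.

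Genes outside the 51 were read from lists of the same pathway, at 2 min. Of all genes tested, 33.5% were lower and 33.4% higher in WT local, 29.9% and 30.4% in WT systemic, 33.8% and 35.5% in rbohD local and 31.5% and 31.8% in rbohD systemic leaves. Of 12 Calvin cycle genes, 11 were lower and none higher in WT local leaves at 2 min, 10 and none in WT systemic, 6 lower and 4 higher in rbohD local and 5 lower and 6 higher in rbohD systemic leaves. FBA1, a chloroplast aldolase, fell with log2 changes of -0.75 and -0.54 in WT local and systemic leaves at 2 min and rose by 0.42 and 0.71 in rbohD, and the genotype differences were -1.17 ± 0.06 (SE, adjusted p = 8.41e-19) and -1.25 ± 0.07 (SE, adjusted p = 2.67e-18). GAPA1, PRK and RCA, the Rubisco activase gene, also fell in WT and rose in rbohD at 2 min, as RBCS2B and RBCS1B did in rbohD systemic leaves. Of 12 other light-reaction genes, 10 were lower and 1 higher in WT local, 7 and 2 in WT systemic, 8 and 4 in rbohD local and 7 and 4 in rbohD systemic leaves. FD1, a leaf ferredoxin among them, which takes electrons from photosystem I, changed by -1.05 and -1.0 in WT and 0.49 and 0.82 in rbohD, all past the test. FNR2, which passes them on to NADP+ to form NADPH, fell in rbohD, with -1.14 in local and -0.91 in systemic leaves, and in WT local leaves, with -0.08.

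Of 12 chlorophyll synthesis genes, 8 were lower and 1 higher in WT local leaves at 2 min, 5 and 3 in WT systemic, 9 and 1 in rbohD local and 8 and 3 in rbohD systemic leaves. Between 29.9% and 35.5% of all genes passed in each direction in the 4 tables, which is the share to read beside each count of this list and of the short lists that follow. PORB, which reduces protochlorophyllide in light, had the lowest changes of these pathway lists at 2 min, with -3.66 ± 0.05 (SE, adjusted p = 9.45e-31) in rbohD local and -2.83 ± 0.04 (SE, adjusted p = 8.09e-41) in rbohD systemic leaves. In WT it changed by 0.10 ± 0.05 (SE, adjusted p = 0.0871) in local and 0.78 ± 0.05 (SE, adjusted p = 1.31e-11) in systemic leaves. All 4 genes that insert antenna proteins into the membrane (ALB3, CPFTSY, CPSRP43 and CPSRP54) were lower in both rbohD leaves at 2 min, while 2 were lower in WT local and 2 higher in WT systemic leaves. GLK1 and GLK2 encode transcription factors that drive photosynthesis genes. GLK1 changed by 0.34, 0.00, 1.05 and 0.76 at 2 min in WT local, WT systemic, rbohD local and rbohD systemic leaves, and GLK2 by -0.61, -0.60, -0.19 and -0.13, of which the WT systemic value of GLK1 did not pass. The mesophyll markers CA1, RCA and GAPB, photosynthesis genes themselves, were all lower in both WT leaves at 2 min, and in rbohD 2 were lower and 1 higher in local leaves and 1 was lower and 1 higher in systemic leaves. Of 5 guard cell markers 3 were lower and 1 higher in WT local, 1 lower and 1 higher in WT systemic, 2 lower in rbohD local and 1 lower in rbohD systemic leaves. Of 3 epidermis markers, 2 were lower in each WT leaf, 2 lower and 1 higher in rbohD local and 1 lower and 1 higher in rbohD systemic leaves. The companion cell markers SUC2 and AHA3 changed by -0.08 (not past the test) and 0.16 in WT local, 0.14 and 0.40 in WT systemic, -0.46 and 0.43 in rbohD local and -0.44 and 0.39 in rbohD systemic leaves. Of 3 root markers PYK10 alone was tested and was higher at 2 min in WT local, rbohD local and rbohD systemic leaves (1.90 in rbohD local leaves) and lower in WT systemic leaves, and COBL9 and EXPA7 were at 0 in all rbohD local libraries. The part of the cell make-up in these results was not tested.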

How the data were processed

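RNA was sequenced from pools of leaves of many plants, 3 biological replicates per group per the study's methods. Per the labels and methods, the authors mapped reads to TAIR10 with STAR 2.4.0.1 and deposited gene counts divided by DESeq2 1.20.0 size factors (the deposited normalized count, a signal), in 4 tables of 12 libraries normalized separately. The counting tool is not given in the sources used here. Reads were recovered from the steps of the values, and 100% came out whole within 0.01 reads, so libraries of 13412657 to 28675623 reads limit the precision.

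Genes with at least 10 normalized counts in 3 libraries of a table were tested by limma 3.58.1 (R 4.3.3) on log2(normalized count + 1), a scale that understates the change of low genes, two-sided, with Benjamini-Hochberg adjustment over all genes and a threshold of 0.05. Time points were compared with 0 min within a table, and interactions gave the genotype by time and leaf by time differences. The fit was tested on simulated data. Members described at length were the gene of highest mean normalized count in each complex (not per kilobase), the largest rises and falls of each table among those past the threshold, and the largest interactions. Genes named otherwise were chosen after their values were seen. The 51 members and the other lists were chosen with earlier results of these data known.

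Alternatives were a pseudocount of 5, no filter, rescaling to one total, edgeR 4.0.16 and DESeq2 1.42.0 on the recovered reads, near-identical genes summed, only the groups compared, a replicate block, shares of reads, and each library left out. Local and systemic leaves of one number came from the same plants, which pairs them in the leaf comparisons, and the correlation of their deviations was 0.06 (median) in WT and 0.01 in rbohD. Promoter windows and gene positions came from RefSeq TAIR10.1, in which all 51 loci were found.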

Additional observations from a re-analysis of the deposited data

Results flagged for a closer look

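The change from 0 min differed between WT and rbohD for 41, 47 and 6 members of local leaves and 30, 7 and 21 members of systemic leaves at 2, 4 and 8 min, by the genotype by time interaction of limma. The shares of all genes were 54.4%, 33.4% and 18.5% in local and 55.8%, 18.5% and 35.7% in systemic leaves, so that of 50 members the counts of 30, 7 and 6 were near or below the share of all genes. It differed between local and systemic leaves for 9 members at 2 min and 1 member at 8 min in WT, and for 43, 22 and 11 members at 2, 4 and 8 min in rbohD. Of all genes, 12% and 13.8% were called at these times in WT, and 25.8%, 16.6% and 20.9% in rbohD.

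LHCB1.4 and RBCS2B had the highest and the lowest difference between genotypes at 2 min. The log2 difference of LHCB1.4 was 1.88 in local and 1.24 in systemic leaves, and that of RBCS2B was -0.83 and -0.94. Between leaves, LHCB2.3 differed by -0.41 at 2 min and LHCB7 by 0.32 at 8 min in WT, and LHCB1.4 by -0.75 at 2 min in rbohD.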

How the results depend on the processing

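Of 206 called values of single members, 170 kept their call under every alternative, and 36 lost it under at least 1. The direction turned once: PSBO-1 in WT local leaves at 2 min was 0.026 after rescaling to one total. Of 180 counts of called members under alternatives other than leaving out a library, 167 stayed within 1.5 times the main count. The others follow. WT local leaves at 4 min (6 members) gave 3 with no filter and 10 rescaled. Genotype by time gave 12 rescaled in local leaves at 8 min (6), and 15 rescaled and 12 by edgeR in systemic leaves at 4 min (7). Leaf by time in WT gave 18 by DESeq2 at 2 min (9), and 4 rescaled, 9 by edgeR and 10 by DESeq2 at 8 min (1). Leaf by time in rbohD at 8 min (11) gave 6 with no filter and 28 rescaled. With the plant pool as a block, the leaf by time counts at 8 min in WT and in rbohD also moved past 1.5 times, as given below. The causes were not tested.

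With single libraries left out, the counts ranged from 3 to 8 for WT local leaves at 4 min, 3 to 8 for genotype by time in local leaves at 8 min, 5 to 13 in systemic leaves at 4 min, 5 to 10 for leaf by time in WT at 2 min, 1 to 3 at 8 min, and 6 to 18 in rbohD at 8 min.

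The summed level of all members, in percent of 0 min, was 88.4% in normalized counts and 99.6% as a share of reads in WT local leaves at 2 min. The WT systemic values were 99.2% and 107% at 2 min and 82.8% and 90.4% at 8 min. It was 70.7% and 73.8% at 2 min and 80.4% and 84.9% at 4 min in rbohD local leaves, and 88.8% and 92.3% at 4 min and 89.3% and 92.4% at 8 min in rbohD systemic leaves.

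With the replicate number as a block, 41, 8 and 37 members (WT local), 28, 14 and 45 (WT systemic), 46, 49 and 49 (rbohD local) and 45, 47 and 43 (rbohD systemic) were called at 2, 4 and 8 min. For genotype by time the replicate block gave 41, 47 and 7 in local and 33, 10 and 26 in systemic leaves. Correlations of same-numbered deviations were -0.08 to 0.15 over these tables, which does not show whether the numbers mark a shared block. With the plant pool as the block, leaf by time gave 9, 0 and 2 members in WT and 45, 28 and 17 in rbohD.

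LHCB4.3 had the lowest counts of the tested members, so counting error bears on it most. With 3 libraries per group, a member that did not pass is not shown to be unchanged.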

Other observations

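LHCB1.5 was listed at 0 in all 48 libraries, although its neighbour LHCB1.4 was abundant. In the RefSeq annotation it lies wholly inside a gene on the opposite strand, AT2G08665, a long non-coding RNA that was also listed at 0. Of 492 protein-coding genes wholly inside a gene on the opposite strand, 390 (79.3%) were at 0 in all 48 libraries, against 13.01% of 26952 other protein-coding genes. Whether LHCB1.5 RNA was present in these leaves was not tested.

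The time of the largest absolute change differed between tables. In WT systemic leaves it was 8 min for 39 of 50 members, and elsewhere 2 min for most: 30 (WT local), 41 (rbohD local) and 36 (rbohD systemic). Of all genes tested, 27% had their largest change at 8 min in WT systemic leaves, and 65.1%, 68% and 71.8% at 2 min in the other tables in that order. The counts of 30 (WT local) and 36 (rbohD systemic) were thus near the share of all genes.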
